A study of Mus musculus with 14 samples.

Results

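The 10 genes described here are widely used markers of endothelial cells, the cells that line blood vessels: Pecam1, Cdh5, Esam, Cldn5, Tek, Tie1, Eng, Robo4, Egfl7 and Emcn. They were taken by symbol from the deposited expression tables, which list 49585 genes, and all 10 were found in both tables. Hind limb skeletal muscle was profiled by RNA-seq in wild-type (WT) mice and in mice with a knockout (KO) of Myf6, a muscle transcription factor also called MRF4, with 3 libraries in each of 4 groups: WT without injury, Myf6 KO without injury, WT with injury and Myf6 KO with injury. The uninjured libraries carry the letter L and the injured libraries the letter R with the same animal numbers, so each animal is read as giving 1 uninjured and 1 injured library. The labels do not state how the knockout was made, what the injury was, how long after it muscle was taken, or the age of the mice. The series asks whether Myf6 acts through proteins secreted by muscle to keep the pool of muscle stem cells. Whole muscle was used, so these genes report on the endothelium within a tissue made mostly of muscle fibres, and fewer endothelial cells cannot be told apart from less RNA of these genes per cell.

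Skeletal muscle is supplied by a dense capillary bed that runs along the fibres. Endothelial cells are held together by adherens junctions, in which VE-cadherin (Cdh5) binds catenins, and by tight junctions, in which claudin-5 (Cldn5) seals the gap between cells. They sense their surroundings through receptors such as Tie2 (Tek), which binds the angiopoietins, and endoglin (Eng), which takes part in signalling by TGF-beta and BMP ligands. Muscle fibres and other cells supply growth factors of the VEGF family to this endothelium.

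Sequences near the transcription starts are shown for the members whose levels differed most between libraries, Egfl7 and Robo4, and for Cldn5, which had the nearest Myf6 peak. RefSeq promoter sequences (assembly GRCm38.p6) were found for 7 of the 10 members, with 9 start sites, and each stretch below is the 250 bases before a start, 5′ to 3′ on the gene's strand. Capitals mark CAGCTG, an E-box of the kind that myogenic factors bind, and CAGGAAG, a core sequence bound by factors of the ETS family, on either strand (the second reads CTTCCTG on the other strand).
Egfl7, first start, chr2:26580833-26581082, plus strand: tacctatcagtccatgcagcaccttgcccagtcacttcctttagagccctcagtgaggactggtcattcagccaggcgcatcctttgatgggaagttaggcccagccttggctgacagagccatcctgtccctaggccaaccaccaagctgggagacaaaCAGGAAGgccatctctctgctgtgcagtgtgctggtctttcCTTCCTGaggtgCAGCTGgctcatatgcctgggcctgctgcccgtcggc
Robo4, chr9:37401722-37401971, plus strand: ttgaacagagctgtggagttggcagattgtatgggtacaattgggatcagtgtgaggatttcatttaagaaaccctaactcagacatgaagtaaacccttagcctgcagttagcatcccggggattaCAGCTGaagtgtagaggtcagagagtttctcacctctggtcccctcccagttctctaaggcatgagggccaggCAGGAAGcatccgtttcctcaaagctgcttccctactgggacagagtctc
Cldn5, chr16:18776597-18776846, plus strand: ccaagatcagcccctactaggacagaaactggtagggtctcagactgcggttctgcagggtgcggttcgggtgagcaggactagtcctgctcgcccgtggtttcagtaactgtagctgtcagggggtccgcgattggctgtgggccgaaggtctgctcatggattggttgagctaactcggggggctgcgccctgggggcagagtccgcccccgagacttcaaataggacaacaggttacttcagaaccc

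Egfl7 carried CAGCTG 37 bases before its first start and CAGGAAG 90 and 49 bases before it. Robo4 carried CAGCTG 123 bases and CAGGAAG 50 bases before its start. The Cldn5 stretch held neither. CAGCTG was present in 2 of the 9 member stretches, against 13% of 32851 stretches of the same length in the table, and CAGGAAG in 4 of 9, in Emcn, Robo4 and 2 of the 3 starts of Egfl7, against 10.8%. The general E-box CANNTG, which includes every CAGCTG, was in 7 of 9 member stretches and in 66.2% of all. A match describes letters only and is not a measured binding site.

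Egfl7, which codes for a secreted protein of the vessel wall, is also the host gene of miR-126, a microRNA typical of endothelial cells. Its mature 3p strand lies at chr2:26591402-26591423 on the plus strand, within the Egfl7 gene, and is shown with its seed (bases 2 to 8) in capitals.
mmu-miR-126a-3p: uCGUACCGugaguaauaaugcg
The libraries were made to read longer RNA, and the Mir126a row held 0.28 RPM or less in every library, so these data give no level for the microRNA itself.

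Myf6 binding was measured in another system, primary myotubes derived from satellite cells of adult mouse muscle, by ChIP-seq with a Flag antibody in 1 library with 1 control. The authors' deposited list holds 12898 peaks with a median fold enrichment of 7.68. No peak overlapped any of the 9 promoter stretches of the members. Of the 7 members with a listed start, only Cldn5 had a peak summit within 10 kb, 2744 bases upstream with a fold enrichment of 9.02, against 12.6% of 17492 genes. The strongest peak near any member was also upstream of Cldn5, at chr16:18762910-18763312, 13703 bases from the start, with a fold enrichment of 21.1. Within 50 kb, 4 of the 7 members had a peak (Cldn5, Eng, Emcn and Egfl7), against 39.1% of genes. Several of these peaks lay nearer the start of another gene. The Eng peak was 1047 bases from Ak1 and 20111 from Eng, and the Emcn peak 9937 bases from Gm38650 and 27069 from Emcn. Some Egfl7 peaks were nearer Agpat2 or Gm35978. Inside gene bodies, Pecam1 held 2 peaks with fold enrichments of 7.73 and 9.37, Cdh5 held 1 at 7.97 and Emcn held 1 at 9.79. The share of all genes with a peak inside them was not computed, and gene length was not taken into account. These peaks are from muscle cells in culture and say nothing of binding in endothelial cells.

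Expression values are RPM, the reads of a gene per 1000000 reads on all genes of a library, and read totals recovered from them ran from 1880087 in uninjured WT replicate 2 to 49392472 in injured KO replicate 3. Each member was supported by at least 32 reads in every library (Tek in uninjured WT replicate 2) and by at least 211 reads outside that library. The targeted gene followed the genotype labels in all 12 libraries, with Myf6 at 25.0 to 121 RPM in the 6 WT libraries and at 1.86 to 3.46 RPM in the 6 KO libraries. The share of reads on mitochondrial genes ran from 3.63% to 23.2%: it was 13.8% to 22.3% in uninjured WT, 8.35% to 14.8% in injured WT, and 3.63% to 6.76% in 4 of the 6 KO libraries, but 15.3% and 23.2% in the uninjured and injured KO libraries of replicate 2, which have 1 animal number. Summed muscle fibre genes were lower in injured KO replicate 2 (154349 RPM) than in any other library (171746 to 244308 RPM). Injured KO replicate 2 stands apart in the results below, and the counts and medians for KO against WT in injured muscle are given with and without it. Each library was left out in turn, but this one was singled out after its values were seen. Genes that passed in the fit without it follow that choice. RPM is not scaled by gene length, so levels are compared between libraries and not between genes.

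Among the junction genes, Pecam1, an adhesion molecule at endothelial contacts, was at 49.9, 37.8 and 54.2 RPM in the uninjured WT libraries of replicates 1, 2 and 3 and at 64.1, 41.5 and 71.7 RPM in the uninjured KO libraries. In injured muscle the WT libraries gave 56.6, 38.5 and 58.0 RPM and the KO libraries 66.7, 94.8 and 69.3 RPM. The injured KO libraries were thus all above the injured WT libraries, whereas the uninjured groups overlapped. Cdh5 was at 84.3, 67.0 and 85.5 RPM in uninjured WT and at 87.6, 78.4 and 84.5 RPM in uninjured KO, the narrowest spread of any member in uninjured KO relative to its mean. In injured muscle the WT libraries gave 78.8, 53.7 and 75.3 RPM and the KO libraries 94.8, 148 and 78.9 RPM. The lowest injured KO library was nearly level with the highest injured WT library, although the groups did not overlap.

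Esam, an immunoglobulin-type adhesion molecule of endothelial tight junctions, was at 57.4, 49.5 and 40.3 RPM in uninjured WT, 52.6, 57.8 and 37.9 RPM in uninjured KO, 63.0, 28.9 and 56.0 RPM in injured WT and 41.1, 133 and 42.9 RPM in injured KO. Cldn5 was at 36.4, 20.2 and 28.0 RPM in uninjured WT, 46.6, 32.4 and 22.6 RPM in uninjured KO, 36.0, 10.9 and 30.7 RPM in injured WT and 28.3, 43.7 and 22.8 RPM in injured KO. For both genes every pair of groups overlapped, with injured WT replicate 2 the lowest of the 12 libraries. Cldn5 was the only member whose highest library was not injured KO replicate 2 but uninjured KO replicate 1.

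Among the receptors, Tek was at 30.7, 17.0 and 25.7 RPM in uninjured WT, 16.9, 16.6 and 21.0 RPM in uninjured KO, 26.9, 18.8 and 33.5 RPM in injured WT and 19.5, 39.6 and 20.9 RPM in injured KO. Tie1, the related orphan receptor that modulates Tie2, was at 35.4, 32.4 and 30.5 RPM in uninjured WT, 40.6, 48.5 and 39.3 RPM in uninjured KO, 40.7, 23.1 and 41.3 RPM in injured WT and 36.3, 86.3 and 37.7 RPM in injured KO. The uninjured groups did not overlap for Tie1, with all KO libraries higher, but overlapped for Tek, where 2 of the 3 KO libraries lay just below the lowest WT library. Eng was at 55.8, 30.3 and 39.4 RPM in uninjured WT, 70.3, 55.4 and 47.9 RPM in uninjured KO, 51.2, 35.7 and 47.7 RPM in injured WT and 49.1, 79.3 and 45.1 RPM in injured KO. Robo4, an endothelial receptor of the roundabout family linked to vessel stability, was at 42.1, 26.6 and 25.2 RPM in uninjured WT, 29.1, 34.6 and 16.9 RPM in uninjured KO, 39.8, 19.5 and 34.5 RPM in injured WT and 18.4, 86.3 and 17.6 RPM in injured KO. The other 2 injured KO libraries of Robo4 were below every injured WT library, and the Eng groups overlapped throughout.

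Egfl7 was at 97.9, 92.5 and 83.9 RPM in uninjured WT, 79.8, 117 and 33.8 RPM in uninjured KO, 97.8, 39.2 and 111 RPM in injured WT and 41.8, 239 and 38.5 RPM in injured KO. Emcn, a sialic acid-rich surface protein of capillary and venous endothelium, was at 22.5, 24.5 and 16.1 RPM in uninjured WT, 15.8, 26.6 and 15.2 RPM in uninjured KO, 23.6, 14.2 and 24.1 RPM in injured WT and 14.4, 43.5 and 16.4 RPM in injured KO. In both genes the KO replicate 2 libraries were the highest of their group, and the uninjured WT libraries were much closer together for Egfl7 (91.4 ± 7.08 RPM, SD, n = 3) than the uninjured KO libraries (76.8 ± 41.6 RPM, SD, n = 3).

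**Figure D1:**
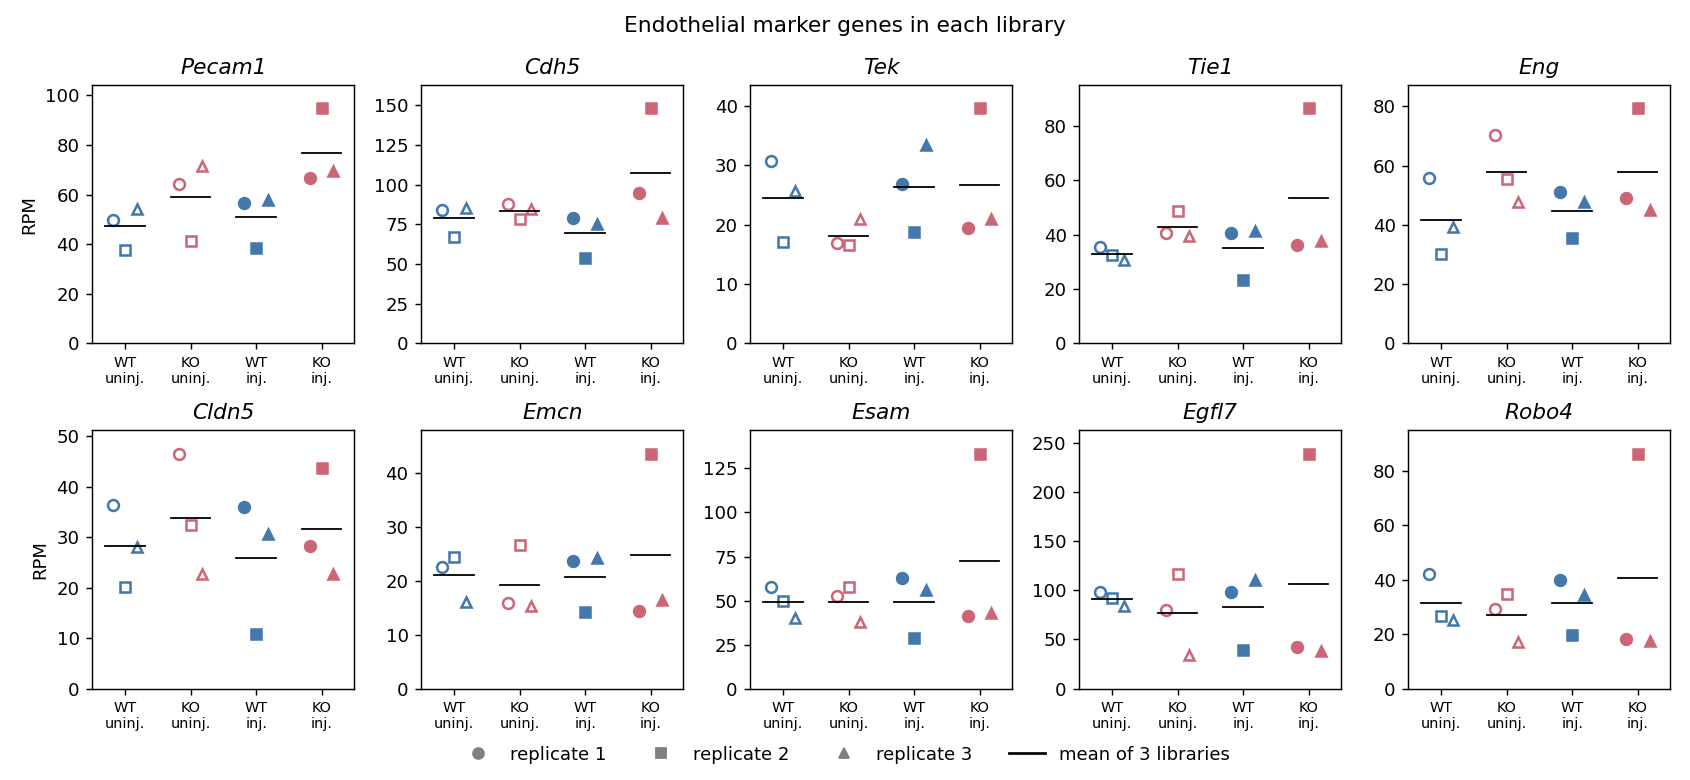
RPM (vertical axis, from 0) of each of the 10 endothelial marker genes in the 12 libraries, by group, with WT in blue, KO in red, open symbols for uninjured and filled symbols for injured muscle, symbol shape for the replicate number and a black line for the mean of 3 libraries. Injured KO replicate 2 is the highest point in 9 of the 10 panels, for example 239 RPM for Egfl7 against 38.5 and 41.8 RPM in the other injured KO libraries.

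In uninjured muscle, no endothelial marker gene passed the test for a difference between KO and WT: 0 of 10 had an adjusted p under 0.05, where 35 of 12460 genes (0.281%) did (limma on log2(RPM + 1), Benjamini-Hochberg adjustment). At an unadjusted p under 0.05 the count was also 0 of 10, against 14.2% of genes, and edgeR and DESeq2 on the recovered reads and the authors' deposited q-values gave 0 of 10 as well. Estimates were above 0 for 6 members and below 0 for 4, with a median of 0.05 on the log2 scale, against -0.18 over all genes tested and 36.8% of genes above 0. The median of all genes depended on the scaling, and moved to -0.32 when RPM was taken over reads outside mitochondrial genes and to 0.07 with upper quartile scaling.

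The estimates ran from Egfl7 at -0.41 (95% confidence interval -1.35 to 0.52) to Eng at 0.48 (-0.21 to 1.18). Tie1 was at 0.37 (SE 0.26, adjusted p = 0.556), and was the only member whose groups did not overlap, where 6.2% of genes were higher without overlap. Pecam1 was at 0.30 (SE 0.30), Cldn5 at 0.24 (SE 0.35), Cdh5 at 0.09 (SE 0.24) and Esam at 0.00 (SE 0.28). On the lower side, Tek was at -0.38 (SE 0.32), Robo4 at -0.23 (SE 0.36) and Emcn at -0.15 (SE 0.33). For Cdh5, the member with the smallest SE, the interval from -0.46 to 0.63 leaves room for a change of either sign that this design could not detect. The directions of Esam, Cdh5, Egfl7, Robo4, Emcn and Cldn5 turned under at least 1 alternative scaling, test or left-out library, while Pecam1, Tie1 and Eng stayed above 0 and Tek stayed below 0 in each of the 17 alternatives run. Summed muscle fibre genes were at 171746 to 181410 RPM in uninjured WT and 217797 to 244308 RPM in uninjured KO, without overlap, and the mitochondrial share also differed. The part of either in these estimates was not tested.

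In injured muscle the same was found: 0 of 10 members passed, where 34 of 12625 genes (0.269%) did (limma, adjusted p under 0.05), and edgeR, DESeq2 and the authors' deposited q-values gave 0 of 10. At an unadjusted p under 0.05, 1 of 10 members was counted, Pecam1, against 10.3% of genes. Pecam1 was at 0.59 on the log2 scale (SE 0.23, 95% confidence interval 0.04 to 1.14, adjusted p = 0.458), with the mean of the KO libraries at 76.9 ± 15.5 RPM and that of the WT libraries at 51.0 ± 10.9 RPM (SD, n = 3). Cdh5 was at 0.59 (SE 0.28, adjusted p = 0.536). These were the 2 members whose groups did not overlap, where 8.29% of genes were higher without overlap, and in the authors' deposited table their log2 changes were 0.61 and 0.65 with q-values of 0.869 and 0.994.

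The other members had wider intervals. Tie1 was at 0.52 (SE 0.39), Esam at 0.40 (SE 0.51), Cldn5 at 0.39 (SE 0.46), Eng at 0.33 (SE 0.26) and Emcn at 0.12 (SE 0.43). Robo4 at 0.03 (SE 0.62), Tek at -0.02 (SE 0.33) and Egfl7 at -0.04 (SE 0.75) lay near 0, and the Egfl7 interval ran from -1.81 to 1.72. Of the 10 estimates 8 were above 0, against 52% of genes, and their median was 0.36, against 0.01 over all genes.

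These estimates rested largely on injured KO replicate 2. Without it, 5 members were higher and 5 lower in KO, the median was -0.03, and the estimates ran from -0.89 for Egfl7 (adjusted p = 0.155) to 0.43 for Pecam1 (adjusted p = 0.158). The fit without that library called far more genes, 2343 of 12312 (19%), yet still 0 of 10 members, the lowest adjusted p being 0.114 for Robo4 at -0.71. Leaving out any other single library gave no called gene at all. Pecam1, Cdh5, Eng and Tie1 stayed above 0 whichever of the 6 libraries was left out, and their lowest estimates were 0.40, 0.34, 0.08 and 0.12. For Eng and Tie1 these came without injured KO replicate 2, with injured WT replicate 2 the lowest library. The remaining Tie1 KO libraries, at 36.3 and 37.7 RPM, were above that library (23.1 RPM) but below the other WT libraries (40.7 and 41.3 RPM). For Eng, KO values of 49.1 and 45.1 RPM stood against 35.7 RPM there and 51.2 and 47.7 RPM in the others. No fit left out both of these libraries.

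**Figure D2:**
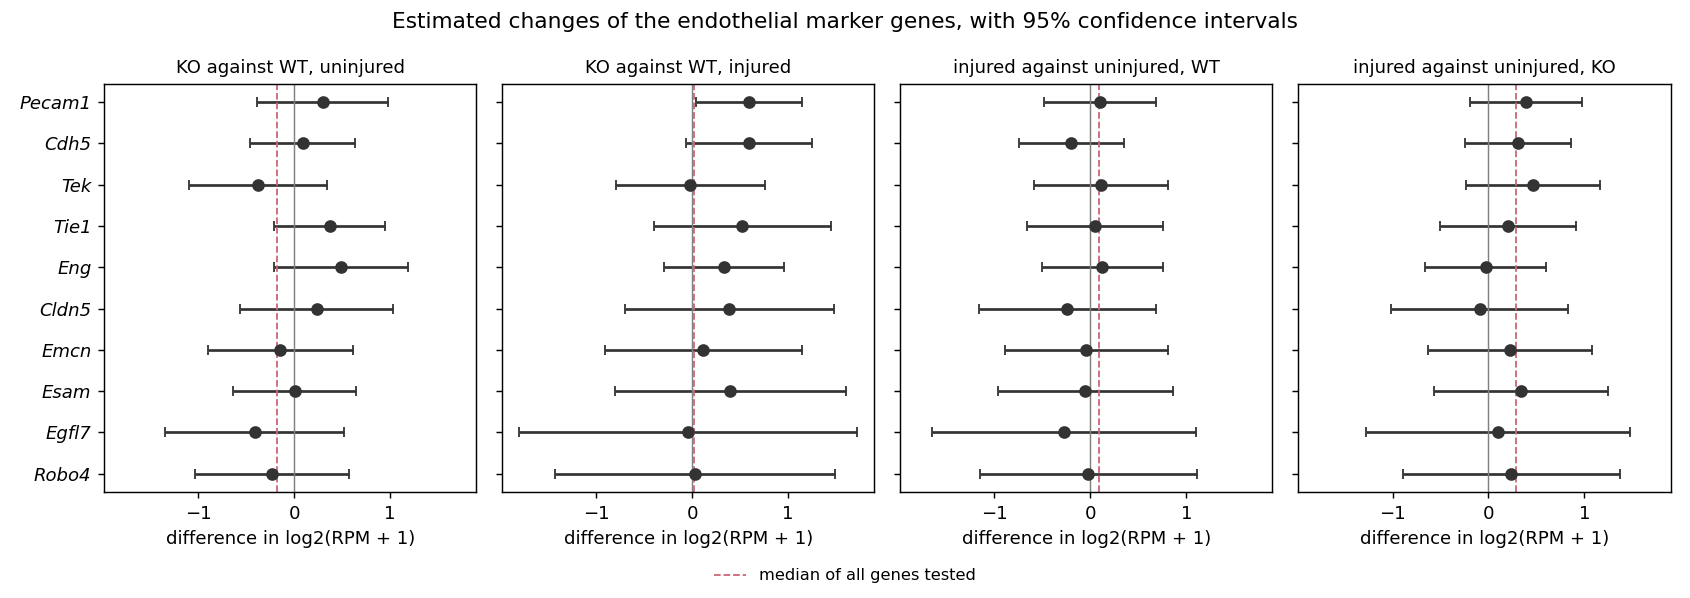
Estimated difference in log2(RPM + 1) (horizontal axis) of each endothelial marker gene in 4 comparisons, with 95% confidence intervals from limma as bars and the median of all genes tested as a dashed red line. All intervals include 0 except that of Pecam1 in injured KO against WT, 0.04 to 1.14, and none of the 10 genes passed the adjusted threshold in any panel.

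No difference with injury was detected in these genes in either genotype. The fit had no term for the animal, so it treated the injured and uninjured libraries of an animal as independent. In WT, 0 of 10 members and 0 of 13337 genes (0%) passed the adjusted threshold for injured against uninjured muscle (limma), and at an unadjusted p under 0.05 the counts were 0 of 10 and 1.29% of genes. Estimates ran from -0.27 for Egfl7 to 0.13 for Eng, with a median of -0.03 against 0.09 over all genes, and 4 of 10 were above 0 where 62.4% of genes were. Pecam1 was higher in the injured muscle of 3 of 3 WT animals and Cdh5 in 0 of 3, with estimates of 0.10 and -0.20 (SE 0.27 and 0.25). For Pecam1 the WT animal of replicate 2 differed by only 0.027 on the log2 scale. The other members were higher in 1 or 2 of 3 WT animals. How many of all genes moved the same way in 3 of 3 was not counted.

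In KO, 0 of 10 members and 0 of 13337 genes (0%) passed, and at an unadjusted p under 0.05 the counts were 0 of 10 and 3.51% of genes. Estimates ran from -0.09 for Cldn5 to 0.47 for Tek, with a median of 0.23, below the 0.29 over all genes, and 8 of 10 were above 0 where 80.9% of genes were. Without injured KO replicate 2 the member median was -0.23. Of 3 KO animals, 2 were higher in injured muscle for 8 members and 1 for Tie1 and Eng.

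The difference between the genotypes in the injury response was tested as an interaction, in which 0 of 10 members and 0 of 13337 genes (0%) passed (limma) and 0 of 10 members and 1.56% of genes had an unadjusted p under 0.05. Cdh5 had the largest member estimate, 0.50 (SE 0.36, 95% confidence interval -0.27 to 1.28, adjusted p of 0.9999), and 9 of 10 members were above 0 where 68.1% of genes were. The member median was 0.28 against 0.20 over all genes. Without injured KO replicate 2 that median was -0.19. edgeR and DESeq2 also called 0 of 10 members in the injury comparisons and the interaction.

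Injured KO replicate 2 had the highest value of all 12 libraries for 9 of the 10 members, where it was highest for 19.5% of the 12625 genes tested. Relative to the mean of the other 2 injured KO libraries it was 5.94 times higher for Egfl7, 4.80 times for Robo4, 3.18 times for Esam, 2.83 times for Emcn and 2.34 times for Tie1. The ratio was lower for Tek (1.96), Cldn5 (1.71), Cdh5 (1.70), Eng (1.68) and Pecam1 (1.39), while the median ratio over all genes was 0.987. Of the 22 further pan-endothelial genes, 21 were highest in that library, with a median ratio of 2.34. Lists for kinds of vessel had fewer genes highest there, 6 of 10 capillary, 4 of 9 arterial, 4 of 7 venous and 4 of 7 lymphatic genes, with median ratios of 1.59, 1.93, 1.73 and 1.93. Junction partners of the members, which other cells also express, had 9 of 11 highest there and a median ratio of 1.96, and mural genes, which mark the pericytes and smooth muscle around vessels, 4 of 12 and 1.58. Of the muscle fibre, fibroblast, and platelet and leukocyte genes, 0 of 10, 0 of 8 and 0 of 9 were highest there, with median ratios of 0.566, 1.06 and 0.887. Red blood cell genes had a median ratio of 2.43, and 3 of 5 were highest in that library. In the uninjured muscle with the same animal number, 5 members lay above the mean of the other 2 uninjured KO libraries, Egfl7 at 2.06 times, Emcn at 1.71, Robo4 at 1.50, Esam at 1.28 and Tie1 at 1.21, and these were also the 5 with the highest ratios in the injured muscle. The other 5 lay at 0.611 (Pecam1) to 0.938 (Eng and Cldn5) times that mean.

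**Figure D3:**
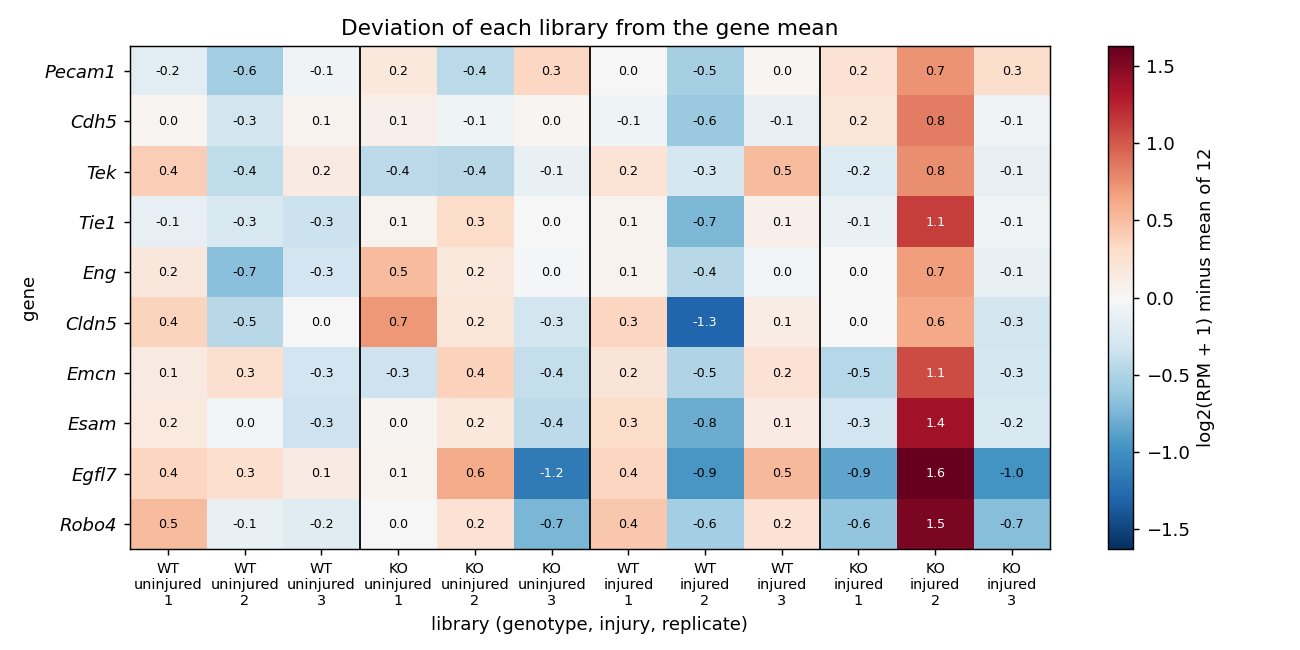
Deviation of each library (columns) from the mean of the 12 libraries for each endothelial marker gene (rows), in log2(RPM + 1), with red for higher and blue for lower values. The column of injured KO replicate 2 is red in every row and that of injured WT replicate 2 is blue in every row, and their median deviations were 0.95 and -0.58.

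The 10 genes did not vary as 1 block. Over the 12 libraries, which come from 6 animals, the 45 pairwise Pearson correlations of log2(RPM + 1) ran from 0.11 to 0.95 with a median of 0.67, and without injured KO replicate 2 from -0.45 to 0.92 with a median of 0.40. The lowest was that of Pecam1 with Egfl7 over all 12 libraries and that of Pecam1 with Emcn without injured KO replicate 2. These are descriptions over libraries that share total-read scaling and animals, and carry no test. The genes whose levels followed the mean of the 10 members most closely, of 9163 genes with a mean of at least 5 RPM, were Cers4 (r = 0.96), Galnt15 (0.96), Flt1 (0.95), Nos3 (0.95), Nrp1 (0.95) and Cfl1 (0.95), each over 12 libraries. Flt1 codes for a VEGF receptor, Nos3 for the endothelial nitric oxide synthase and Nrp1 for a VEGF co-receptor. Cers4 remained at the first rank without injured KO replicate 2, where Nos3 was at rank 15.

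Within a library, the balance between members shifted. The ratio of Egfl7 to Pecam1 was 1.96, 2.45 and 1.55 in uninjured WT, 1.24, 2.82 and 0.471 in uninjured KO, 1.73, 1.02 and 1.91 in injured WT and 0.627, 2.52 and 0.556 in injured KO, a span of 5.98 times between the lowest and the highest library. The 3 lowest ratios were those of uninjured KO replicate 3 and injured KO replicates 1 and 3. The ratio of Robo4 to Pecam1 spanned 3.86 times, from 0.236 to 0.910, with the same 3 libraries lowest. That of Cdh5 to Pecam1 spanned 1.66 times, from 1.14 to 1.89. Because both genes of a ratio come from the same library, the scaling cancels out, but the number of reads still sets the counting error. In uninjured WT replicate 2 the Egfl7 to Pecam1 ratio of 2.45 rests on 174 and 71 reads.

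The ratio moved with the mitochondrial share of the library, a relation looked at after the values were seen. The 3 libraries with the lowest Egfl7 to Pecam1 ratio had the 3 lowest mitochondrial shares, 3.63%, 4.30% and 4.95%, and the 5 lowest ratios belonged to the 5 libraries with the lowest shares. The highest ratio, 2.82, was in uninjured KO replicate 2 with a share of 15.3%, and those of injured KO replicate 2 and uninjured WT replicate 2, at 2.52 and 2.45, came with the 2 highest shares, 23.2% and 22.3%. The nuclear RNA Neat1 was also lowest in the 3 libraries with the lowest ratios, at 474 to 531 RPM against 1108 to 5103 RPM in the other 9. Another nuclear RNA, Malat1, was lowest in the same 3 libraries, at 73.4 to 81.1 RPM. Its highest value, 494 RPM, was in injured WT replicate 2, with a ratio of 1.02. In uninjured KO replicate 2, with the highest ratio, Malat1 was at 106 RPM. The part of the mitochondrial share and of these RNAs in the ratio was not tested. Since 4 of the 6 KO libraries and none of the WT libraries had a share under 8%, the genotype and the share cannot be told apart in those libraries.

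**Figure D4:**
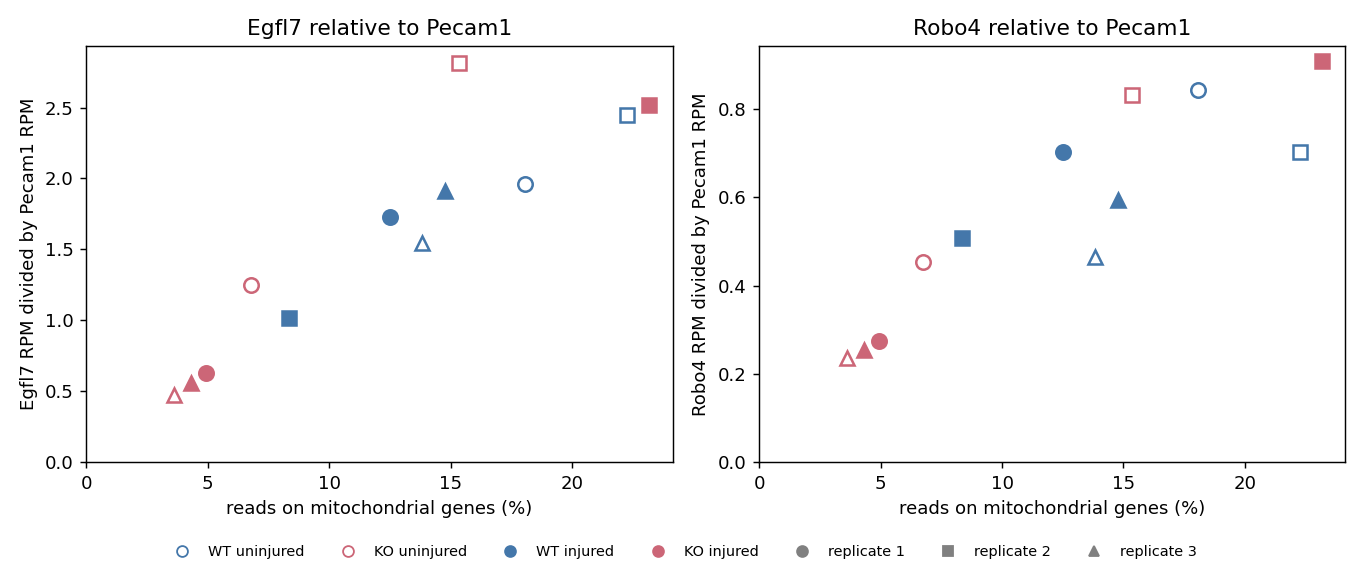
Ratio of Egfl7 (left) and Robo4 (right) to Pecam1 in RPM (vertical axes, from 0) against the percentage of reads on mitochondrial genes (horizontal axis) in the 12 libraries, with WT in blue, KO in red, open symbols for uninjured and filled symbols for injured muscle and symbol shape for the replicate number. The 3 KO libraries with under 5% mitochondrial reads have Egfl7 to Pecam1 ratios of 0.471 to 0.627, and both KO replicate 2 libraries have ratios above 2.5.

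Other genes of the same cells were read from lists. Of 22 further pan-endothelial genes, 0 passed the adjusted threshold in uninjured muscle (limma), with 9 estimates above 0 and 13 below and a median of -0.09 against -0.18 over all genes. The 3 most abundant were Cd34, a surface sialomucin, at -0.59 (SE 0.28), Ptprb, the phosphatase VE-PTP that acts on Tie2, at -0.35 (SE 0.30), and the VEGF receptor Flt1 at 0.17 (SE 0.25). At an unadjusted p under 0.05, 1 was higher (Sox18) and 3 were lower (Klf2, S1pr1 and Tal1), against 3.53% and 10.7% of genes, and 6 were lower without overlap of the groups, where 15.5% of genes were. Klf2, a flow-responsive transcription factor of endothelium that other cells also express, came closest to the threshold. These 4 genes were named after their values were seen. Klf2 was at 54.9, 61.7 and 70.0 RPM in uninjured WT and 18.8, 25.7 and 23.0 RPM in uninjured KO, which do not overlap, with a log2 change of -1.43 (SE 0.27, adjusted p = 0.0655). It passed the threshold in 3 of 17 alternatives. In injured muscle the WT libraries gave 52.6, 35.2 and 52.7 RPM and the KO libraries 14.5, 44.6 and 22.8 RPM, where injured KO replicate 2 made the groups overlap.

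In injured muscle 18 of the 22 further pan-endothelial genes were above 0 in KO and 0 passed, with a median of 0.30 against 0.01. Cd34 was at -0.17 (SE 0.37), Ptprb at 0.27 (SE 0.30) and Flt1 at 0.40 (SE 0.44). Without injured KO replicate 2, 8 of the 22 were above 0 with a median of -0.10 against 0.03, and 2 of the 22 passed in the fit that called 19% of all genes. Both were lower in KO, Klf2 at -1.29 (adjusted p = 0.0179) and Cd34 at -0.60 (adjusted p = 0.0415). In injured muscle Klf2 passed in 1 of 17 alternatives, which was this fit. The values are from whole muscle, and which cells these 2 changes come from was not tested. Of 10 capillary genes, 0 passed in either comparison. The 3 most abundant were Fabp4, Aqp1 and Cd36, which code for a fatty acid-binding protein, a water channel and a fatty acid translocase that adipocytes, red cells or muscle fibres also express, and their estimates were 0.33, 0.33 and -0.10 in uninjured and 1.04, 0.62 and 0.99 in injured muscle (SE 0.47, 0.33 and 0.29). Cd36 was at 146, 102 and 198 RPM in injured WT and 358, 239 and 269 RPM in injured KO, without overlap, with an adjusted p of 0.328, and it passed without injured KO replicate 2 (adjusted p = 0.0342).

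Ligands and partners of the member receptors were listed with the endothelial growth factors, and 14 were found in the tables, of which 11 were tested. None passed in uninjured muscle (limma, 0 of 11), with 7 above and 4 below 0, where 36.8% of all genes were above 0. Vegfa, the main growth factor for endothelium, had the lowest p of the list. It was at 264, 179 and 192 RPM in uninjured WT and 76.0, 45.4 and 74.1 RPM in uninjured KO, so that the lowest WT library was more than 2 times the highest KO library. The log2 change was -1.70 (SE 0.30, adjusted p = 0.0580), and it passed in 9 of 17 alternatives, edgeR on the recovered reads among them (adjusted p = 0.0403). In injured muscle the WT libraries gave 249, 194 and 225 RPM and the KO libraries 64.5, 147 and 66.8 RPM, again without overlap. The log2 change was -1.36 there (SE 0.33, adjusted p = 0.259), and it passed in 2 of 17 alternatives. Among these was the fit without injured KO replicate 2, singled out after the values were seen, at -1.74 (adjusted p = 0.00250).

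Vegfb, a related factor, was at 73.5, 93.6 and 101 RPM in uninjured WT and 139, 148 and 131 RPM in uninjured KO, a log2 change of 0.64 (SE 0.24, adjusted p = 0.279), and at 0.32 (SE 0.18) in injured muscle. Tgfb3, a TGF-beta ligand, was at 0.32 (SE 0.38) and 0.62 (SE 0.29). Tgfb1 was at 1.32 (SE 0.40, adjusted p = 0.20) and 0.81 (SE 0.24, adjusted p = 0.333), with all KO libraries above all WT libraries in both conditions. Its value in uninjured WT replicate 2, 1.06 RPM, was under the floor of that library, 1.60 RPM. The netrin receptor Unc5b, which binds Robo4, was at 0.97 (SE 0.39) and 0.76 (SE 0.23), also without overlap in both. In uninjured muscle the groups of Unc5b were nearly level at their edges. The highest WT library, replicate 2 with the fewest reads, was at 4.26 RPM and the lowest KO library at 4.49 RPM. Angpt1, the activating ligand of Tie2, was at 0.20 (SE 0.54) and 0.79 (SE 0.46), and its competitor Angpt2 at 0.19 (SE 0.42) and 0.67 (SE 0.42). Gdf2, a BMP ligand of endoglin, and Bmp10, from the same list, were at 0 reads in all 12 libraries. Such a value allows up to 0.0607 to 1.60 RPM.
Without injured KO replicate 2, 6 of the ligands and partners passed in injured muscle, where 19% of genes did. Vegfa and Pgf were lower, and Vegfb, Tgfb1, Tgfb3 and Angpt1 were higher in KO. Tgfb1, Unc5b, Angpt1, Angpt2 and Pgf were named after their values were seen.

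Junction partners of Cdh5 and Cldn5 gave 0 of 11 tested genes past the threshold in either comparison (limma). In uninjured muscle 4 were above and 7 below 0, with a median of -0.24 against -0.18 over all genes, and in injured muscle all 11 were above 0, where 52% of genes were, with a median of 0.25 against 0.01. Without injured KO replicate 2, in which 9 of the 11 had their highest value, 6 were above and 5 below 0 with a median of 0.09 against 0.03, and 0 passed. The 3 most abundant were beta-catenin (Ctnnb1), afadin (Afdn) and alpha-catenin (Ctnna1), which muscle and other cells also express, at -0.17, -0.58 and 0.02 in uninjured and 0.25, 0.07 and 0.44 in injured muscle.

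Cells that surround or fill the vessels were read in the same way. Of 12 mural genes, which mark pericytes and smooth muscle, 0 passed in either comparison (limma), with medians of 0.00 and 0.27, and without injured KO replicate 2 the injured median was 0.06 with 0 passing. Rgs5 was at -0.46 and 0.09, Abcc9 at -0.16 and -0.11 and Acta2 at 0.91 and 1.06 in uninjured and injured muscle (SE 0.42 and 0.31 for Acta2). The summed RPM of the mural list was 582 to 818 in uninjured WT, 641 to 738 in uninjured KO, 625 to 711 in injured WT and 676 to 901 in injured KO. Red blood cell genes, a measure of blood left in the sample, summed to 335 to 550 RPM in uninjured WT, 163 to 401 RPM in uninjured KO, 167 to 433 RPM in injured WT and 151 to 583 RPM in injured KO, with the highest value in injured KO replicate 2 and 151 and 261 RPM in the other 2 injured KO libraries, and 0 of 5 passed with or without that library. Genes of platelets and leukocytes, cells that also carry Pecam1, summed to 32.4 to 74.9, 23.4 to 35.2, 42.0 to 62.3 and 35.9 to 40.8 RPM in the same order. All 7 tested were below 0 in KO in both comparisons, where 36.8% and 52% of all genes were above 0, and 0 passed. All 7 were again below 0 in injured muscle without injured KO replicate 2, and 1 passed, the platelet chemokine Pf4 at -0.92 (adjusted p = 0.0350). Fibroblast genes summed to 1578 to 3444, 1271 to 2370, 2495 to 2664 and 2148 to 2548 RPM. Of these, 7 of 8 and 6 of 8 were below 0 in KO, beside the same shares of all genes, and 0 passed. In injured muscle without that library 6 of 8 were below 0 and 2 passed, the matrix protein gene Dpt at -0.66 (adjusted p = 0.0274) and the PDGF receptor gene Pdgfra at -0.68 (adjusted p = 0.0447). Of 10 muscle fibre genes, 0 passed in either comparison, and in the fit without that library 1 passed, the creatine kinase gene Ckm at 0.99 (adjusted p = 0.0429). These 4 genes were named because they passed in that fit, in which 19% of all genes did. The part of these cells in the member values was not tested.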

How the data were processed

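RNA was extracted with Trizol and libraries were made from total RNA with a TruSeq RNA v2 kit, per the labels' protocols. Expression came as 2 tables, of uninjured and of injured muscle, with RPM per library as scaled by the authors. Both also hold deposited test values: log2 fold changes, their errors, p-values and q-values. The submitters' processing notes name HISAT2 2.1.0, featureCounts, DESeq2, Bowtie 1.1.0, MACS2 2.1.0.20140616 and the builds mm10 and GRCm38.p5 with no role given, and treatment of strand and of shared reads is not given in the sources used here. Whole reads were recovered from the RPM steps, and 100% of the values tested came out whole within 0.1 read. The depth of 1880087 to 49392472 reads sets a floor, taken as 3 reads, of 0.0607 to 1.60 RPM, which covers counting error only.

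Each peak in the deposited list has a summit signal, a fold enrichment and −log10 values of p and q, per the file headers. Peaks came from 1 ChIP library. Peak positions were set against RefSeq starts of GRCm38.p6, which has the same chromosome sequences as mm10 and GRCm38.p5.

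Members and lists were chosen with earlier results of these data known, so no adjusted p over a list alone is given. Changes are differences in log2(RPM + 1), KO minus WT or injured minus uninjured, from limma 3.58.1 in R 4.3.3 (lmFit, eBayes with trend) over genes reaching 1 RPM in 3 or more fitted libraries, and understate the change of low genes. P-values were two-sided, with Benjamini-Hochberg adjustment over all genes tested and a threshold of 0.05. KO against WT used its own 6 libraries, and injury and interaction used all 12, which joins the 2 tables. The main injury and interaction fits had no term for the animal, so their errors and p-values ignore the pairing. The animal as a block was an alternative. Genes named were all members, of each other list those past the threshold or else the 3 with the highest mean RPM, Myf6, and the 6 genes most like the members; exceptions are stated. The plan's count tests (edgeR 4.0.16 and DESeq2 1.42.0 on the recovered reads) were alternatives, as were other scalings, filters, a pseudocount of 0.1, a replicate block and each library left out. The limma fit was tested on simulated data. Of genes changed 4-fold, 100% were called in both KO against WT comparisons. Of genes changed 2-fold, 45% were called in uninjured muscle (12502 genes) and 58% in injured muscle (12667 genes). The simulation gave every gene the same relative spread beyond counting error, and no library stood apart in it. Real values such as Egfl7 in injured KO (106 ± 115 RPM, SD, n = 3) spread more. In the real fit for uninjured muscle, Vegfa missed the threshold at a log2 change of -1.70 (limma, adjusted p = 0.0580). These shares hold for the simulated spread only, and do not give the share of real changes in the members that would be called. Libraries of 1 group are taken to come from different animals, by their animal numbers. Numbers pair the injured with the uninjured library of an animal: the correlations of their deviations from the group means were 0.28, -0.23 and 0.02 in WT and 0.02, 0.50 and 0.63 in KO. No 2 libraries agreed within sampling noise, the lowest mean chi-square per gene being 12.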

Additional observations from a re-analysis of the deposited data

How the results depend on the processing

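In all comparisons and alternatives, 0 of the 10 members passed the adjusted threshold. Of the members' values under alternatives, 149 of 170 kept their direction for KO against WT in uninjured muscle and 150 of 170 in injured muscle, and 195, 188 and 190 of 220 for injury in WT, injury in KO and the interaction. The lowest adjusted p of a member under any alternative was 0.114, for Robo4 in injured muscle without injured KO replicate 2 (limma). Depth limits uninjured WT replicate 2 most, with a floor of 1.60 RPM.

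The number of genes called over the whole table depended on the processing. In uninjured muscle it was 35 in the limma fit, 55 with edgeR, 663 with DESeq2, 162 with upper quartile scaling, 96 with TMM scaling, 205 with RPM over reads outside mitochondrial genes, 1 with no filter, 7 with at least 1 RPM in every library, 20 with a pseudocount of 0.1, 167 with all 12 libraries in 1 fit and 331 in the authors' deposited table. In injured muscle it was 34, then 427 with DESeq2, 19 with no filter, 4 with at least 1 RPM in every library, 56 with all 12 libraries in 1 fit and 225 in the authors' deposited table. With a replicate block on the number that WT and KO libraries share, 752 genes were called in uninjured and 0 in injured muscle, and 0 members in either. Same-numbered WT and KO libraries correlated at 0.04, 0.26 and 0.37 in uninjured and at -0.45, -0.60 and -0.30 in injured muscle. In uninjured muscle 5 of 6 libraries correlated best with their own number, and in injured muscle 0 of 6. The labels do not say whether the number stands for anything that WT and KO libraries share, and this was not tested. With the animal as the replicate block, the injury and interaction tests called 0 genes. Leaving out 1 library in turn gave 3 to 84 genes in uninjured muscle (5, 10, 5 and 3 without WT replicates 1, 2 and 3 and KO replicate 1, and 84 without KO replicate 3), 0 to 2343 in injured muscle, and 0 to 1 for injury in KO. Under it the member median ran from -0.23 to 0.49 for injury in KO and from -0.19 to 0.54 for the interaction, each lowest without injured KO replicate 2. Myf6 kept its direction in all 34 alternatives and missed the threshold in 10, with adjusted p of 0.056 to 0.257 (limma). The count of members with a ChIP peak within 10 kb, 1 of 7, became 4 within 50 kb and 0 with a fold enrichment of at least 10. The shares of all genes were 12.6%, 39.1% and 3.54%.

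Members whose direction turned had the following log2 changes, and the cause was not tested. In KO against WT in uninjured muscle, edgeR gave Egfl7 0.084, Robo4 0.065 and Emcn 0.17, DESeq2 gave Egfl7 0.098, Robo4 0.082 and Emcn 0.17, the values in the authors' deposited table were Egfl7 0.10, Robo4 0.086 and Emcn 0.18, upper quartile scaling gave Robo4 0.053 and Emcn 0.14, TMM gave Emcn 0.070, and RPM outside mitochondrial genes gave Esam -0.15 and Cdh5 -0.068. In KO against WT in injured muscle, Tek and Egfl7 were at 0.014 and 0.38 with edgeR, 0.025 and 0.39 with DESeq2 and 0.030 and 0.38 in the authors' deposited table. For injury in WT, Tie1 was at -0.0064 with DESeq2, -0.033 with upper quartile scaling, -0.0093 with TMM and -0.052 with RPM outside mitochondrial genes, where Pecam1 was at -0.0024. For injury in KO, edgeR gave Tie1 -0.028 and Emcn -0.023, DESeq2 gave Tie1 -0.041 and Emcn -0.042, upper quartile scaling gave Esam -0.033, Egfl7 -0.28, Cdh5 -0.067, Robo4 -0.13, Tie1 -0.17 and Emcn -0.14, TMM gave Egfl7 -0.18, Robo4 -0.032, Tie1 -0.070 and Emcn -0.044, and RPM outside mitochondrial genes gave Eng 0.013. For the interaction, edgeR gave Tie1 -0.040 and Cldn5 -0.22, DESeq2 gave Tie1 -0.035 and Cldn5 -0.23, upper quartile scaling gave Robo4 -0.027, Tie1 -0.14, Cldn5 -0.14 and Emcn -0.020, and TMM gave Tie1 -0.061 and Cldn5 -0.059. An alternative chosen after seeing the data left out replicate 2 of uninjured WT, uninjured KO and injured KO. It gave Tek -0.12, Pecam1 -0.049, Eng -0.078 and Emcn 0.075 for injury in WT, Esam -0.087, Egfl7 -0.37, Robo4 -0.29, Tie1 -0.11 and Emcn -0.013 for injury in KO, and Esam -0.048, Egfl7 -0.10, Robo4 -0.17, Tie1 -0.15 and Emcn -0.088 for the interaction.

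Leaving out 1 library in turn gave these ranges where a direction turned. For KO against WT in uninjured muscle they were Esam -0.13 to 0.18, Egfl7 -0.80 to 0.082, Cdh5 -0.025 to 0.15, Robo4 -0.44 to 0.055 and Cldn5 -0.018 to 0.49. In injured muscle they were Esam -0.15 to 0.69, Tek -0.33 to 0.16, Egfl7 -0.89 to 0.41, Robo4 -0.71 to 0.41, Cldn5 -0.12 to 0.70, Emcn -0.37 to 0.40, and, of other endothelial genes, Tal1 -0.45 to 0.29 and S1pr1 -0.49 to 0.12. For injury in WT they were Esam -0.26 to 0.29, Tek -0.12 to 0.32, Pecam1 -0.049 to 0.29, Eng -0.078 to 0.35, Egfl7 -0.55 to 0.19, Robo4 -0.22 to 0.27, Tie1 -0.087 to 0.32, Cldn5 -0.55 to 0.27 and Emcn -0.21 to 0.20. For injury in KO they were Esam -0.21 to 0.63, Eng -0.27 to 0.13, Egfl7 -0.75 to 0.55, Robo4 -0.50 to 0.62, Tie1 -0.20 to 0.41, Cldn5 -0.34 to 0.16 and Emcn -0.26 to 0.51. For the interaction they were Esam -0.16 to 0.68, Eng -0.40 to 0.050, Egfl7 -0.48 to 0.82, Robo4 -0.47 to 0.64, Tie1 -0.25 to 0.36, Cldn5 -0.36 to 0.46 and Emcn -0.22 to 0.55.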

Other observations

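Genes that separate kinds of vessel were read from lists as well. Of 9 arterial genes, 0 passed in uninjured muscle and 0 of 8 in injured muscle (limma, adjusted p under 0.05), and all 8 estimates were above 0 in injured KO with a median of 0.40 against 0.01 over all genes. Of the 8, 6 were above 0 without injured KO replicate 2, with a median of 0.13 against 0.03, and 1 passed where 19% of all genes did. Sema3g, a secreted semaphorin of arterial endothelium, was at 12.2, 7.45 and 12.6 RPM in uninjured WT and 21.0, 14.2 and 18.6 RPM in uninjured KO, and at 12.8, 6.44 and 10.7 RPM in injured WT and 20.3, 15.3 and 19.6 RPM in injured KO. The KO libraries were above the WT libraries in both conditions, with log2 changes of 0.71 (SE 0.33, adjusted p = 0.381) and 0.86 (SE 0.27, adjusted p = 0.357), and it passed in injured muscle without injured KO replicate 2 (0.98, adjusted p = 0.0420). Fbln5, a matrix protein, was at 0.24 and 0.10, and the Notch ligand Dll4 at 0.60 and 0.65.

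Of the venous genes, 0 of 6 passed in either comparison (limma), with Ephb4, a receptor of venous endothelium, at 0.08 and 0.46, Aplnr at 0.52 and 0.69 and Nrp2 at 0.10 and 0.53 in uninjured and injured muscle. The injured median was 0.50, and 0.21 with 0 of 6 passing without injured KO replicate 2. Of the lymphatic genes, 0 of 6 and 0 of 7 passed, with the VEGF receptor Flt4 at 0.31 and 0.70 and Reln at -0.92 and 0.62. Pdpn, a surface protein of lymphatic endothelium and of fibroblasts, was at 11.2, 9.57 and 9.95 RPM in uninjured WT and 3.69, 1.81 and 2.36 RPM in uninjured KO, without overlap, with a log2 change of -1.66 (SE 0.35, adjusted p = 0.0927). It passed in 5 of 17 alternatives. In injured muscle the WT libraries gave 12.6, 8.95 and 11.5 RPM and the KO libraries 3.72, 6.53 and 3.04 RPM, again without overlap. The log2 change was -1.19 there (SE 0.28, adjusted p = 0.234), and it passed in 2 of 17 alternatives. Among these was the fit without injured KO replicate 2, singled out after the values were seen, at -1.45 (adjusted p = 0.00835).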
